A study of Mus musculus with 5 samples.

Results

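The 4 genes Cited1, Ntn5, Shisal2a and Arrdc3 are described here. They were picked, of 25873 named genes, from among the many rows of the deposited table whose Notch2 knockout values both lay on the same side of both wild-type values (1090 of the genes tested were lower in this way and 3262 higher). They were thus chosen by their RPKM values in the WT and Notch2 knockout libraries, so that contrast is given for them as a description, with no test. Cited1, Ntn5 and Shisal2a were lower in the Notch2 knockout libraries, and Arrdc3 was higher. All 4 passed the filter of 1 RPKM or more on average (reads per kilobase of gene, scaled to the library total), which left 11543 genes.

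The cells were sorted from limb muscle of C57BL/6J mouse fetuses at E16.5 as tdTomato-positive cells free of the lineage stains. Every fetus carried Pax7-CreER and Rosa-tdTomato, and every dam received tamoxifen at 240 mg/kg for 2 days from E12.5, so the wild-type (WT) group had the recombinase, the reporter and the drug as well. The Notch1 conditional knockout (cKO) added Notch1f/f and the Notch2 cKO added Notch2f/f. There were 2 WT libraries (Em2 and Em4), 1 Notch1 cKO library (Em8) and 2 Notch2 cKO libraries (Em3 and Em4), named by the tags of the table. Recombination is limited to cells that expressed Pax7 when tamoxifen was present and to their descendants. Whether the 2 libraries of a group come from separate fetuses is not stated, so p-values measure only the spread between these libraries. That spread was estimated mostly from all genes together, and little from a gene's own libraries.

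Notch receptors are cleaved when a neighbouring cell presents a ligand, and the freed intracellular part joins the DNA-binding protein RBPJ to switch on Hes and Hey genes. In fetal muscle this signal is known to hold progenitors back from differentiating. Cited1 encodes a co-activator without a DNA-binding domain of its own, which ties the acetyltransferases CBP and p300 to transcription factors, and is a marker of nephron progenitors in the kidney. Ntn5 encodes a secreted protein of the netrin family, whose members steer migrating axons and cells, and Shisal2a a small membrane protein of the Shisa-like group whose function is little known. Arrdc3 encodes an alpha-arrestin, an adaptor that links membrane proteins to ubiquitin ligases of the NEDD4 family.

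The promoters of the 4 genes are shown because 3 of the genes were lower together and 1 was higher. Each window runs from 250 bases before to 50 bases after the start site (RefSeq, GRCm38.p6, the assembly of mm10), 5′ to 3′ on the gene's strand. Capitals mark matches to 3 motifs searched on both strands: TGGGAA, the core read by RBPJ, CAGCTG, the E-box of myogenic factors, and GTAAACA, a forkhead motif. The windows are chrX:102252132-102252431, minus strand, for Cited1; chr7:45683772-45684071, plus strand, for Ntn5; chr4:108383606-108383905, minus strand, for Shisal2a; and chr13:80883134-80883433, plus strand, for Arrdc3.
Cited1: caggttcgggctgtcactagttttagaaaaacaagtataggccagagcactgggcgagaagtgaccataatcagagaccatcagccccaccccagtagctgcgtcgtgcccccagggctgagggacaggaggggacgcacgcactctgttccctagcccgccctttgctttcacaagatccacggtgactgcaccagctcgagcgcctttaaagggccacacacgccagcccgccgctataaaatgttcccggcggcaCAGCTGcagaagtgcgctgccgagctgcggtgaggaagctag
Ntn5: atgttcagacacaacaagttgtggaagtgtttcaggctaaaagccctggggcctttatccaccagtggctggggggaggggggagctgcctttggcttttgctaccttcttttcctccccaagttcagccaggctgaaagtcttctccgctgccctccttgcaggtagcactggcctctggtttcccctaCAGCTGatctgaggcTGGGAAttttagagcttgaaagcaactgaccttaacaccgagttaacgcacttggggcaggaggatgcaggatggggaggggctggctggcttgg
Shisal2a: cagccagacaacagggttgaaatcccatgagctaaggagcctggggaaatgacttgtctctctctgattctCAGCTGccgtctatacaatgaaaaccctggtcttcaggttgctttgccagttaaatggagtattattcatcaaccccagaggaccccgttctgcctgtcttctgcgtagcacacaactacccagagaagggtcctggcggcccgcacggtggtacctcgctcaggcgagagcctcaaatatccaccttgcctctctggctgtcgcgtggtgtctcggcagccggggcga
Arrdc3: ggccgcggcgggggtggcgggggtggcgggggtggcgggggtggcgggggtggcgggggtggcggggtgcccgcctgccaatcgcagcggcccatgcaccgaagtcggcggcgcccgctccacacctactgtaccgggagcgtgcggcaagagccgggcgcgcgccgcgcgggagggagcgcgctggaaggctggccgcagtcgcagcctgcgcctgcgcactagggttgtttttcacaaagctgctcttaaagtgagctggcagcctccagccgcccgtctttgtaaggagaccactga

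CAGCTG was present in the windows of Cited1, Ntn5 and Shisal2a, with its first base 8 bases after, 60 before and 179 before the start site. It was absent from that of Arrdc3. Of all 32851 promoter windows, 16.3% held it. TGGGAA was found only in Ntn5, 45 bases before the start site, and 25.6% of all windows held it. GTAAACA was in none of the 4 windows and in 3.65% of all. Cited1 and Arrdc3 have further annotated start sites, whose windows held no TGGGAA and no GTAAACA. One of those of Cited1 held CAGCTG, 164 bases before its start site. A match describes these letters only. The RefSeq start of Shisal2a lies outside the GENCODE gene given below, upstream of it. The GC content was 59.7% for Cited1, 55.3% for Ntn5, 55.3% for Shisal2a and 73% for Arrdc3, against a median of 52.7% over all windows.

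Across the series, the libraries held 20740000 to 28830000 reads as implied by the RPKM values. Muscle RNA was present in every library, with Myog between 944 and 1737 RPKM and Pax7 between 4.15 and 13.4. These values do not give the share of progenitors among the cells. Notch1 fell to 2.33 RPKM in the Notch1 cKO library, from 7.26 and 13.5 in WT (limma adjusted p = 0.0443). Notch2 had WT values of 2.40 and 4.17 RPKM, then 3.35 and 2.03 in Notch2 cKO Em3 and Em4 (limma adjusted p = 0.905), so its gene-level value does not set the libraries labelled Notch2 cKO apart, and the exons the floxed allele loses are not stated. Notch2 cKO Em3 stood apart in heat-shock RNA, with Hspa1b at 165 RPKM there and between 3.16 and 9.23 RPKM elsewhere.

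Cited1 (ENSMUSG00000051159.16, GENCODE M21 on GRCm38, chromosome X, 102247381 to 102252181, minus strand) was the most abundant of the 4. It stood at 220.4 RPKM in WT Em2, 193 in WT Em4, 162 in Notch1 cKO Em8, 98.5 in Notch2 cKO Em3 and 106 in Notch2 cKO Em4. The WT libraries were highest, the Notch2 cKO libraries lowest, and the groups did not overlap. The mean of the WT pair was 2.02 times that of the Notch2 cKO pair, a log2 difference of −1.01 on the log2(RPKM + 1) scale. In a bulk sample, fewer cells of a type and less RNA per cell cannot be told apart. The replicates of a group differed by 1.14 times in WT and 1.08 times in Notch2 cKO, while the closest values of the groups were 1.82 times apart. Between 1991 and 5246 reads lay behind each value, so the 95% exact Poisson intervals of the WT libraries (214 to 226 and 187 to 199 RPKM) and of the Notch2 cKO libraries (94.2 to 103 and 102 to 109.8 RPKM) were far apart. These intervals cover counting error only, since the reads carry no molecular identifiers. For each of the 4 genes the choice required the groups to be apart, so gaps and intervals between them only describe the values. Even at its lowest, Cited1 lay above 89.8% of the genes tested in its library.

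Cited1 is X-linked, so the sex of the fetuses was read from the libraries. Xist, the RNA that coats the inactive X in females, was between 0.00194 and 0.0134 RPKM in the 5 libraries, and the Y-linked gene Ddx3y was between 21.1 and 28.8 RPKM. So every library had the same pattern of Y-linked and X-inactivation RNA. The nearest gene of the table on one side, Rps4x, had 74.8 and 54.7 RPKM in WT and 53.8 and 53.2 in Notch2 cKO (limma adjusted p = 0.85). On the other side, Gm14858 was at or under 0.219 RPKM in every library.

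Ntn5 (ENSMUSG00000070564.15, GRCm38 chromosome 7, 45684022 to 45694556, plus strand) had the widest distance between the knockouts. Its level was 55.4 RPKM in WT Em2, 47.4 in WT Em4, 58.9 in Notch1 cKO Em8, 20.3 in Notch2 cKO Em3 and 23.7 in Notch2 cKO Em4, from 663 to 2367 reads. Both Notch2 cKO libraries were low, and the Notch1 cKO library stood beside WT, slightly above it. The WT mean was 2.34 times the Notch2 cKO mean (log2 difference −1.19). Each pair of replicates differed by 1.17 times, and the gap between the groups was 2.00 times.

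Ntn5 overlaps Sec1, a fucosyltransferase gene read from the opposite strand, with 519 bases of exon in common. No source used here says whether the counting used strand, so reads in those bases could be assigned to either gene. Sec1 was low, at 1.36 and 1.54 RPKM in WT, 1.07 in Notch1 cKO and 1.0 and 1.30 in Notch2 cKO (limma adjusted p = 0.905 in Notch2 cKO against WT). The gene length implied by the RPKM values, 1574 bases, equals that of 1 annotated Ntn5 transcript.

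Shisal2a (ENSMUSG00000059816.5, GRCm38 chromosome 4, 108367777 to 108383349, minus strand) showed the largest fold of the lowered genes and the widest spread within WT. It stood at 23.6 RPKM in WT Em2, 15.1 in WT Em4, 13.9 in Notch1 cKO Em8, 6.34 in Notch2 cKO Em3 and 6.38 in Notch2 cKO Em4. The Notch2 cKO pair was low and nearly equal, while the WT libraries differed by 1.56 times. The WT mean was 3.04 times the Notch2 cKO mean (log2 difference −1.43), and the gap between the groups was 2.37 times. The transcript is short, at 593 bases, and only 78 and 109 reads lay behind the Notch2 cKO values, with intervals of 5.01 to 7.92 and 5.24 to 7.69 RPKM. The interval of WT Em4, 13.1 to 17.3 RPKM, lay above both.

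Arrdc3 (ENSMUSG00000074794.10, GRCm38 chromosome 13, 80883384 to 80896042, plus strand) was higher in Notch2 cKO, and was the lowest of the 4 in every library but Notch2 cKO Em3, where Shisal2a was lower. Its values were 2.09 RPKM in WT Em2, 2.71 in WT Em4, 3.34 in Notch1 cKO Em8, 8.31 in Notch2 cKO Em3 and 6.13 in Notch2 cKO Em4. Both Notch2 cKO libraries were high, Em3 more so. The Notch2 cKO mean was 3.01 times the WT mean (log2 difference 1.27), replicates differed by 1.29 times in WT and 1.36 times in Notch2 cKO, and the gap between the groups was 2.26 times. The gene is long (4089 bases implied), which gave 209 to 722 reads a library.

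**Figure D1:**
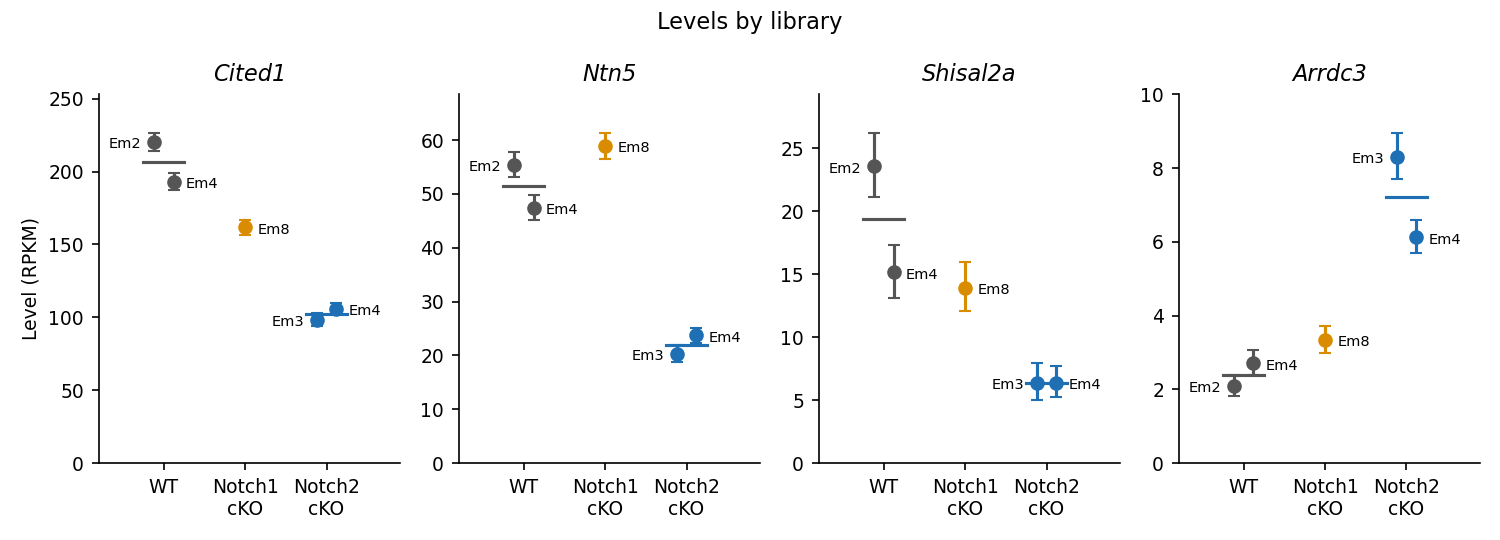
Level of each gene in RPKM (vertical axes, starting at 0) by group; points are libraries, labelled by tag, error bars are 95% exact Poisson intervals of the reads, and horizontal lines are means of 2 libraries. For Cited1, Ntn5 and Shisal2a the Notch2 cKO libraries lie below WT, for Arrdc3 above, and the Notch1 cKO library lies between the groups except for Ntn5.

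Lack of overlap alone is common in this table. Of the genes tested, 9.44% had both Notch2 cKO libraries below both WT libraries and 28.3% had both above. In the limma test on log2(RPKM + 1), 0.182% of genes were called lower and 0.355% higher at an adjusted p under 0.05, and the median log2 difference over all genes was 0.14. As the same contrast picked the 4 genes, their place beyond these shares is no result.

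The Notch1 cKO library was not used in the choice, although the WT libraries it is compared with were. None of the 4 genes passed the limma test in Notch1 cKO against WT, where 0.0433% of genes were called higher and 0.026% lower. The log2 difference was −0.35 for Cited1 (SE 0.32, adjusted p = 1), 0.20 for Ntn5 (SE 0.33, adjusted p = 1), −0.41 for Shisal2a (SE 0.37, adjusted p = 1) and 0.36 for Arrdc3 (SE 0.40, adjusted p = 1). The unadjusted p values ran from 0.267 to 0.549. The single library was assumed to vary like the others. Without WT Em2 the difference was 0.31 for Ntn5, −0.11 for Shisal2a and 0.23 for Arrdc3, and without WT Em4 it was 0.09, −0.72 and 0.49, so these values depend on which WT library is kept. A p of this size does not show that Notch1 cKO equals WT.

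The Notch1 cKO library lay outside both WT libraries for all 4 genes, below for Cited1 and Shisal2a and above for Ntn5 and Arrdc3. Of all genes tested, 26.1% lay below and 24.3% above in this way. As a description, the Notch1 cKO library lay between the groups for Cited1, Shisal2a and Arrdc3, at 34.7%, 28.9% and 28.3% of the distance from WT to Notch2 cKO on the log2 scale. These shares move with the WT library kept, as the differences do. Among all tested genes whose groups did not overlap, the Notch1 cKO library lay in between for 12.6% of those lower and 16.1% of those higher in Notch2 cKO. For Shisal2a its counting interval, 12.1 to 15.9 RPKM, overlapped that of WT Em4. For Ntn5, its interval of 56.5 to 61.3 RPKM overlapped that of WT Em2, 53.1 to 57.8 RPKM. The Notch1 cKO level was 1.58 times the Notch2 cKO mean for Cited1, 2.67 times for Ntn5 and 2.19 times for Shisal2a, and the Notch2 cKO mean of Arrdc3 was 2.16 times the Notch1 cKO level. Both Notch2 cKO libraries lay below the Notch1 cKO library for Cited1, Ntn5 and Shisal2a and above it for Arrdc3, as they did for 25.2% and 47.7% of all genes, and limma called 0.208% of genes lower and 0.277% higher. These ratios have no test, because the Notch2 cKO values took part in the choice.

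The column names end in digits that no source used here explains, and 2 pairs of libraries share theirs. Notch2 cKO Em4 and WT Em4 are one such pair. Between them the log2 difference was −0.86 for Cited1, −0.97 for Ntn5, −1.13 for Shisal2a and 0.94 for Arrdc3. Notch2 cKO Em3 and Notch1 cKO Em8 are the other, and there it was −0.71, −1.49, −1.02 and 1.10 in the same order. The direction within the first pair was fixed by the choice of the genes. In the second, which holds no WT library, Cited1, Ntn5 and Shisal2a were lower and Arrdc3 higher in Notch2 cKO Em3. That library took part in the choice as well, so this direction is no independent check. Whether the digits bear on the differences was not tested.

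Gene length moved with the comparison. Across the genes tested, Spearman's rho between length and the log2 difference of Notch2 cKO and WT was 0.248, with libraries as the shared source of both values, and between WT Em2 and WT Em4 it was −0.483. The 1462 genes under 1000 bases, which include Cited1 (its implied length is 975 bases) and Shisal2a (593 bases), had a median difference of −0.24. The 2716 genes of 1000 to 2000 bases, Ntn5 among them, had a median of 0.06, and the 3070 genes of 4000 bases or longer, Arrdc3 among them, one of 0.14. After removal of the length trend from each library, an alternative added after seeing the data, the differences were −0.89 for Cited1, −1.26 for Ntn5, −1.11 for Shisal2a and 1.03 for Arrdc3.

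**Figure D2:**
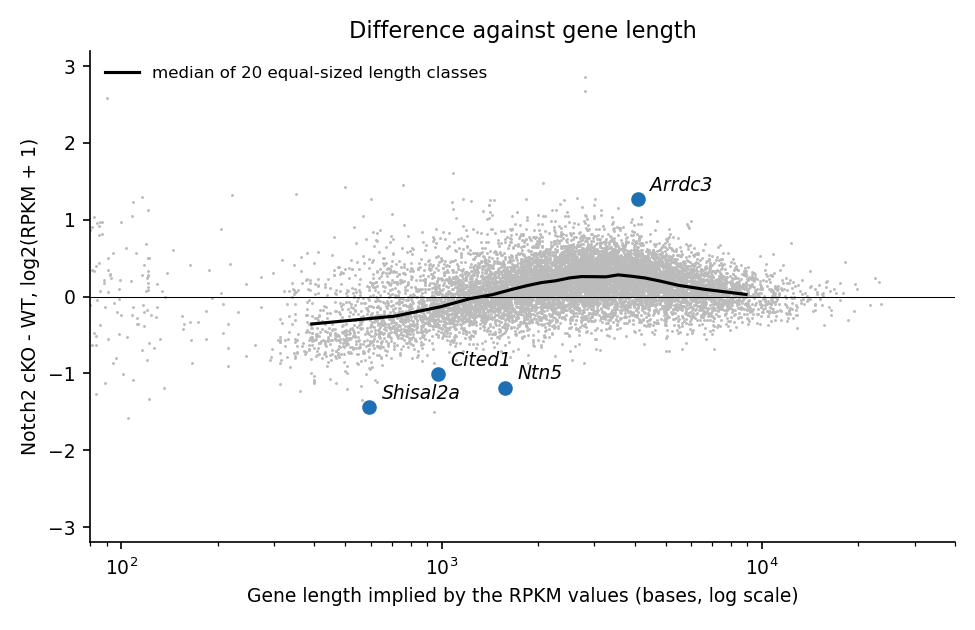
Log2 difference of Notch2 cKO and WT (vertical axis) against the gene length implied by the RPKM values (horizontal, log scale) for the genes tested, with the median of 20 equal-sized length classes as a line; 75 genes lie outside the axes. The line is below 0 for short genes. The 4 genes (large points) lie farther from 0 than the line at their length, in the contrast that chose them.

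The families of the 4 genes were read next, to see whether related genes moved as well. In the CITED group, 5 relatives and partners besides Cited1 were tested and none passed in Notch2 cKO against WT (median 0.29). Cited2, which encodes another CITED protein and competes with HIF1A for CBP and p300, had 11.5 and 15.7 RPKM in WT, 21 in Notch1 cKO and 23.0 and 20.2 in Notch2 cKO. Both Notch2 cKO libraries of Cited2 were above both WT libraries, as for 28.3% of all genes, with Notch1 cKO between the Notch2 cKO values. The difference did not pass (log2 difference 0.64, SE 0.29, limma adjusted p = 0.569). Cited4 was at or under 0.690 RPKM in every library, so Cited1 supplied most of the CITED transcript on this per-length scale in all 5. The acetyltransferase genes Ep300 and Crebbp, whose products CITED proteins bind, had differences of −0.05 and −0.16. Hif1a had WT values of 20.9 and 21 RPKM and Notch2 cKO values of 24.5 and 34.5 (adjusted p = 0.734).

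Ntn5 was the most abundant netrin in every library. The others tested, Ntn1, Ntn3 and Ntn4, stood between 0.675 and 5.12 RPKM over the libraries. Their differences in Notch2 cKO against WT were 0.09, 0.15 and 0.33, with limma adjusted p values of 0.961, 0.923 and 0.84. With Ntn5 included, the netrins summed to 60.5 and 56.1 RPKM in WT, 66.5 in Notch1 cKO and 28.8 and 32.1 in Notch2 cKO. Of the netrin receptor genes, 3 of 8 were tested and none passed (median −0.03). The cell adhesion receptor gene Mcam was the highest, with WT values of 27.7 and 41.6 RPKM and Notch2 cKO values of 32.2 and 34.2 (adjusted p = 0.983). Neo1, the gene of the receptor neogenin, had 3.38 and 7.59 RPKM in WT, then 5.14 and 4.91 in Notch2 cKO (adjusted p = 0.988). Unc5a, the gene of a receptor for repulsion, had 2.46 and 5.80 RPKM in WT, then 5.41 and 7.11 in Notch2 cKO (adjusted p = 0.709). Dcc, the gene of the main receptor for attraction, stayed at or under 0.145 RPKM.

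Among the Shisa genes, 4 besides Shisal2a were tested and none passed, with a median of 0.28. All 4 were above 0, unlike Shisal2a. Shisa2, whose product holds back maturation of Wnt and FGF receptors in frog embryos, had 10.4 and 15.9 RPKM in WT, 9.65 in Notch1 cKO and 21.1 and 23.5 in Notch2 cKO (log2 difference 0.75, SE 0.29, limma adjusted p = 0.458). Shisal1 had WT values of 3.29 and 5.74 RPKM and Notch2 cKO values of 8.08 and 5.67 (adjusted p = 0.734). Shisal2b, the closest relative by name, was at or under 0.110 RPKM in every library.

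The alpha-arrestin genes held 1 further call. Txnip, whose product limits glucose uptake and binds thioredoxin, rose from WT values of 20.6 and 28.0 RPKM to Notch2 cKO values of 71.7 and 36.3, with 24.9 in Notch1 cKO (log2 difference 1.06, SE 0.28, limma adjusted p = 0.0459). Its Notch2 cKO libraries were unequal, Em3 being far higher than Em4. The call depended on single libraries and on the settings: without Notch2 cKO Em3 the difference was 0.58 (adjusted p = 0.797) and without WT Em2 it was 0.85 (adjusted p = 1), within a range of adjusted p from 0.00454 to 1 over the alternatives. With all 5 libraries kept, the call was also lost with a pseudocount of 0.1 (adjusted p = 0.0863) or 0.5 (0.058), no filter (0.73), median-of-ratios scaling (0.335), the same sum of RPKM (0.0532), quantile normalization (0.457), no eBayes trend (0.162), voom (0.276) and the length trend removed (0.789). Arrdc1, Arrdc2 and Arrdc4 had differences of 0.17, 0.19 and 0.29 and did not pass, and Arrdc5 was at or under 0.228 RPKM. The 7 NEDD4-family ligase genes tested, whose products alpha-arrestins recruit, held no call, with 6 above 0 and a median of 0.39. Nedd4 was the most abundant, with WT values of 105.5 and 158 RPKM and Notch2 cKO values of 138 and 208.5 (adjusted p = 0.754). For Smurf1 the WT values were 3.87 and 6.03 RPKM and the Notch2 cKO values 8.44 and 5.97 (adjusted p = 0.754), and for Wwp2 they were 4.40 and 6.68, then 6.07 and 9.42 (adjusted p = 0.798).

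In Notch1 cKO against WT, none of the genes tested in these 6 family lists passed the limma test.

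**Figure D3:**
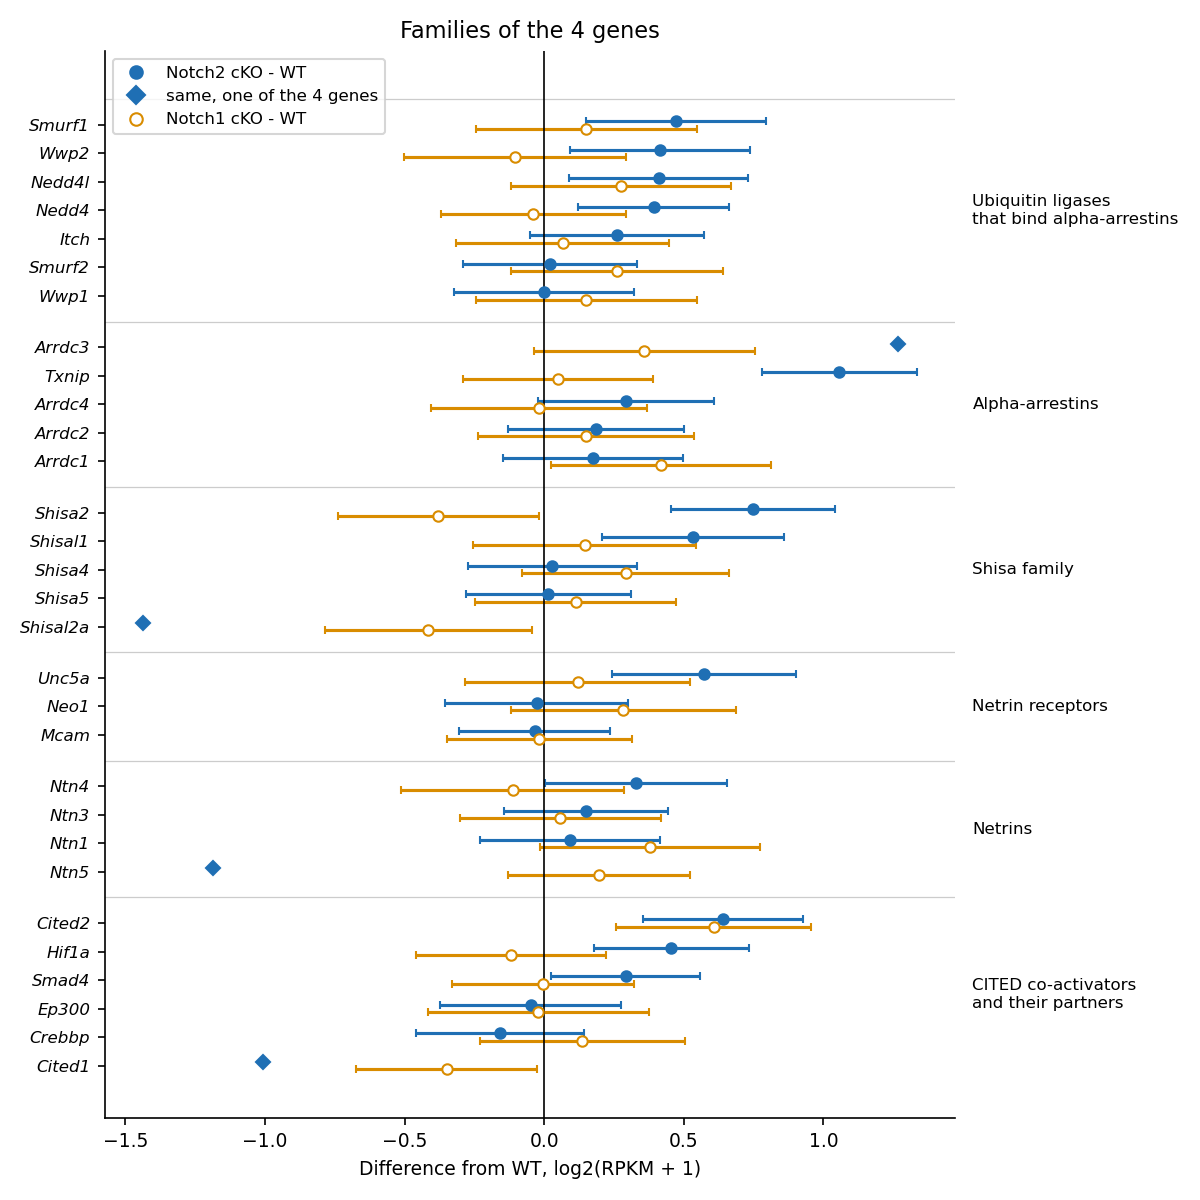
Difference from WT on the log2(RPKM + 1) scale for the tested genes of the 6 family lists, filled circles for Notch2 cKO and open circles for Notch1 cKO, with bars of 1 SE; diamonds without bars are the 4 genes in the contrast that chose them. Txnip stands out among the relatives in Notch2 cKO, at 1.06, while the relatives of Cited1, Ntn5 and Shisal2a lie between −0.16 and 0.75.

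The genes with the most similar pattern over the 5 libraries were found by the Euclidean distance between log2(RPKM + 1) values, each centred on the gene's own mean, among 7268 genes averaging 5 RPKM or more. For Cited1 they were Tmem160 at a distance of 0.40, the ribosomal protein gene Rpsa at 0.41 and Pin4, a peptidyl-prolyl isomerase gene, at 0.43, against a median distance of 1.26. For Ntn5 they were Rbp7, a retinol-binding protein gene, at 0.41, the histone variant gene H2az2 at 0.46 and S100a10, the gene of an annexin partner, at 0.47, against a median of 1.62. For Shisal2a they were Cited1 at 0.54, the ribosomal protein gene Rpl26 at 0.58 and Ntn5 at 0.59, against a median of 1.75. Since Cited1, Ntn5 and Shisal2a were picked for the same pattern, their closeness follows from the choice. For Arrdc3 they were Zup1, a deubiquitinase gene, at 0.40, the stress-induced gene Sesn2 at 0.41 and Cirbp, a cold-induced RNA-binding protein gene, at 0.43, against a median of 1.26.

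Rbp7 had 56.4 and 39.3 RPKM in WT, 69.7 in Notch1 cKO and 20.9 and 27.9 in Notch2 cKO. Cirbp had 46.4 and 47.5 RPKM in WT, 57.5 in Notch1 cKO and 99.5 and 76.9 in Notch2 cKO. Rpsa had 309.8 and 265 RPKM in WT, 271 in Notch1 cKO and 179 and 137 in Notch2 cKO, and pseudogene copies can share its reads. As these genes were picked for their likeness over the same libraries, their differences are given with no test.

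**Figure D4:**
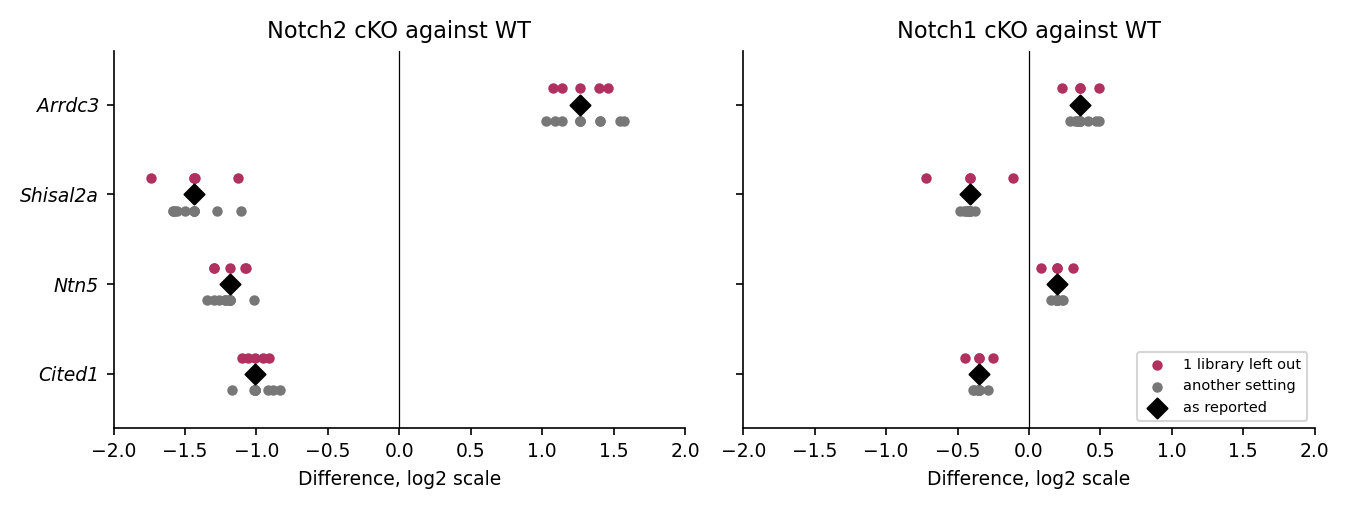
Log2 difference of each gene from WT under every setting tried: the reported value (diamond), the fits with 1 library left out (upper points) and the other settings (lower points). The values for Notch2 cKO come from the contrast that chose the genes, which fixes their sign when 1 library is left out; those for Shisal2a in Notch1 cKO run from −0.72 to −0.11.

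Several marker lists differed between Notch2 cKO and WT in the direction of some of the 4 genes, and their part in these results was not tested. Their levels in Notch1 cKO did not all follow those of the 4 genes. The summed level of 8 erythroid markers was 979 and 1219 RPKM in WT, 1749 in Notch1 cKO and 521 and 449 in Notch2 cKO, low where Cited1, Ntn5 and Shisal2a were low. All 5 of its tested genes were below 0 in Notch2 cKO against WT and limma called 3 of them lower, against 0.182% of all genes. The sums of 3 lists were higher in both Notch2 cKO libraries than in WT, as Arrdc3 was: 8 mast cell markers (12.3 and 31.4 against 3.42 and 9.07 RPKM), 9 adipocyte markers (106 and 87.7 against 69.8 and 34.9 RPKM) and 11 Schwann and nerve markers (7.50 and 7.73 against 3.98 and 4.76 RPKM). Most of the adipocyte sum was Fabp4 alone, at 92.5 and 75.4 RPKM in Notch2 cKO against 65.1 and 31.2 in WT. Fabp4 was not called (limma adjusted p = 0.163). In the mast cell and adipocyte lists limma called 2 genes each higher, of 3 and 4 tested, against 0.355% of all genes. In each of these lists 5 markers stayed under 1 RPKM in every library. With voom or with no filter no gene was called, so these calls and the erythroid ones depend on the setting. Higher sums were also found for 18 muscle lineage genes (4022 and 4141 against 3226 and 3370 RPKM) and 18 dissociation and heat-shock genes (4244 and 2966 against 2448 and 2865 RPKM). The largest part of the muscle sum was Myog, at 1655 and 1737 RPKM in Notch2 cKO against 1053 and 1272 in WT. Of 17 muscle lineage genes tested, 14 were above 0 and 3 below, with no call. Pax7 (log2 difference −0.61) and Myf5 (−0.50) were among those below. The Notch1 cKO sums were 1.29 RPKM for mast cell, 62.5 for adipocyte and 4.37 for Schwann and nerve markers. They were 2697 RPKM for muscle lineage genes and 3174 for dissociation and heat-shock genes. Mast cell and muscle lineage sums thus lay below both WT libraries there, and dissociation and heat-shock genes above both. Of all single genes tested, 28.3% were higher and 9.44% lower without overlap in Notch2 cKO. Arrdc3 and Txnip were highest in Notch2 cKO Em3, the library with the high heat-shock RNA.

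The summed levels of cartilage and tendon, interstitial fibroblast, endothelial and haematopoietic markers overlapped between the groups. Cartilage and tendon markers reached 234 RPKM in Notch2 cKO Em4 and stayed between 54.0 and 81.6 in the other libraries. Interstitial markers stood at 137 and 221 RPKM in WT, 350.2 in Notch1 cKO and 218 and 349 in Notch2 cKO. Endothelial markers summed to 22.0 to 41.3 RPKM and haematopoietic markers to 13.6 to 32.6 RPKM over the libraries. No marker of these lists was at 0 in every library.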

How the data were processed

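The authors deposited 1 table of RPKM values for 27179 rows and 5 libraries. RPKM is the read number per kilobase of gene, scaled to the library total. The tool bcl2fastq 2.20.0 and the build mm10 come from the submitters' processing notes, and no source used here gives the aligner, counter or annotation. Per the labels, paired-end libraries came from the SMART-Seq v4 low-input kit. The 1306 rows without a gene name, 2.19% to 3.07% of the summed RPKM of a library, were left out of the tests.

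Whole reads were recovered from the steps between RPKM values: at the inferred totals 94.3% of 14828 genes had a length within 0.02 of a whole base, where 4% would by chance. The recovered reads summed to 99.3% of the totals. Differences were tested in limma 3.58.1 (R 4.3.3), with a mean for each group and a trended eBayes step, on the log2(RPKM + 1) values of 11543 genes averaging 1 RPKM or more in the 5 libraries. It had 2 residual and 103.8 prior degrees of freedom, so the spread used for a gene came mostly from the trend over all genes. A gene whose replicates differed widely could thus still pass. P-values are two-sided and Benjamini-Hochberg adjusted, with a threshold of 0.05. A log2 difference understates the change of low genes. The script was tested on simulated data.

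The 4 genes and the 20 gene lists were chosen with earlier results of these data known. The text names the 4 genes, the called members and up to 3 of smallest p in the 6 family lists, the nearest genes on each side, overlapping genes, the 3 of most similar pattern for each, and from the other lists the called and most abundant members where they touch a result. Some genes of the lists beyond that rule were named after their values were seen. Sequences come from RefSeq (GRCm38.p6), which held promoters for all 4 genes, and positions from GENCODE M21, matched by symbol for 24654 of 25873 named genes. Alternatives were other pseudocounts, filters, scalings and fits, voom on the recovered reads and leaving out each library. The result of 1 gene list is not reported here.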

Additional observations from a re-analysis of the deposited data

How the results depend on the processing

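No paired analysis was possible because the columns carry no replicate number, so the numbers shared by the WT and Notch2 cKO labels cannot be tied to libraries. The direction of the 4 genes in Notch2 cKO against WT is fixed by their choice when 1 library is left out, so it is no sign of stability. None passed in Notch1 cKO against WT under any alternative run (adjusted p from 0.9998 to 1). Arrdc3 has no value at a minimum of 5 RPKM. In Notch2 cKO against WT, median-of-ratios scaling gave −1.17 for Cited1 and −1.35 for Ntn5, and rescaling to the same sum of RPKM gave −0.83 and −1.02. Without the length trend, Cited1, Shisal2a and Arrdc3 were at −0.89, −1.11 and 1.03. Arrdc3 was 1.54 with a pseudocount of 0.1 and 1.57 with voom. Against Notch1 cKO, Cited1 was −0.78 with median-of-ratios scaling, −0.48 with the same sum and −0.50 without the length trend, Ntn5 was −1.21 with the same sum, and Shisal2a was −0.63 without the length trend.

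The number of called genes depended on the setting. In Notch2 cKO against WT it was 62 (41 higher, 21 lower), and 0 with no filter, 33 (14 and 19) at a minimum of 5 RPKM, 26 (14 and 12) with median-of-ratios scaling, 28 (26 and 2) with the same sum, 4 with quantile normalization, 36 without an eBayes trend, 0 with voom and 1 without the length trend; leaving out 1 library gave 13 (without WT Em2) to 287 (without WT Em4, 52 higher and 235 lower), and 39 without Notch2 cKO Em4. In Notch1 cKO against WT it was 8, and 15 with a pseudocount of 0.1, 0 with no filter, 3 with the same sum, 1 with quantile normalization, 3 with voom and 0 without the length trend; leaving out 1 library gave 1 (without WT Em4) to 5 (without any other). In Notch2 cKO against Notch1 cKO it was 56, and 0 with no filter, 32 with median-of-ratios scaling, 27 with the same sum, 13 with quantile normalization, 26 without an eBayes trend, 14 with voom and 0 without the length trend; leaving out 1 library gave 35 (without Notch2 cKO Em4) to 67. The cause was not tested. These scalings put the median log2 difference of all genes in Notch2 cKO against WT between −0.000454 and 0.28, against 0.14 as reported. In the main test 881, 213 and 1000 genes of the comparisons, in the same order, had an unadjusted p under 0.05.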

Other observations

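Arrdc3 and Txnip are known to respond to FOXO factors and glucocorticoids, so a list of such genes was read. Besides Arrdc3, 24 of its genes were tested in Notch2 cKO against WT, 17 were above 0 and 1 passed (Txnip), with a median of 0.30 against 0.14 for all genes. Tsc22d3, a glucocorticoid-induced gene, had 27.0 and 30.7 RPKM in WT, 31.0 in Notch1 cKO and 41.9 and 43.1 in Notch2 cKO (limma adjusted p = 0.644). Bnip3, a mitophagy receptor gene, had WT values of 22.4 and 15.8 RPKM and Notch2 cKO values of 29.7 and 46 (adjusted p = 0.129). Tsc22d3 and Bnip3 were thus higher without overlap, as were 28.3% of all genes tested. The other way, 7 genes of the list were below 0, with Per1 (log2 difference −0.34) and Cebpd (−0.28) lowest. In Notch1 cKO against WT, 21 of the 24 were above 0 and none passed, with a median of 0.34 against 0.009 for all genes. The lean above 0 was thus not particular to Notch2 cKO. The metallothionein genes Mt1 and Mt2, the most abundant of the list, were highest in Notch1 cKO Em8, at 401 RPKM for Mt1 (284 and 145 in WT) and 342 RPKM for Mt2 (184 and 98.8 in WT). Mt1 and Mt2 did not pass (adjusted p = 0.904 and 0.117).

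Notch effector genes held no call, with a median of −0.03 over 10 genes in Notch2 cKO and −0.22 in Notch1 cKO. Hes1 had 271 and 194 RPKM in WT, 96.1 in Notch1 cKO and 162 and 143 in Notch2 cKO. Both Notch2 cKO libraries were thus below WT, as for 9.44% of all genes, and the difference did not pass (limma adjusted p = 0.58). The Notch1 cKO library was lowest, an order unlike that of Cited1, Ntn5 or Shisal2a. Proliferation genes held no call, with medians of 0.20 and −0.20 over 12 genes. Muscle lineage genes held none over 17 genes, with medians of 0.26 and −0.14.

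Next to Shisal2a, Gpx7, a glutathione peroxidase gene 17041 bases away, had 138 and 120.2 RPKM in WT, 160.2 in Notch1 cKO and 90.5 and 109 in Notch2 cKO (adjusted p = 0.769). On its other side Coa7 had 13.1 and 10.8 RPKM in WT, then 14.3 and 13.1 in Notch2 cKO (adjusted p = 0.906). The neighbours of Ntn5 and Arrdc3, which are Fut2, Car11, A830082K12Rik and Gm4211, were at or under 1.65 RPKM in every library. On the opposite strand 1700023H06Rik overlaps Arrdc3, with 0 bases of exon in common, and no RPKM value was given under that name.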
